A study of Homo sapiens with 6 samples.

Results

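The replication-dependent histone genes supply most of the histone protein that packages newly copied DNA, and 70 of the 20171 genes named on the array were such genes, represented by 77 of the 29183 probe sets tested. A probe set was taken when its annotation named H1-1 to H1-6 or an H2AC, H2BC, H3C or H4C gene, in current or older symbols (HIST1H, HIST2H, HIST3H and HIST4H4). Of the 77, 58 carried 1 symbol and 19 carried several, and 4 pairs had identical values in all 6 arrays, so counts and medians below are over 73 distinct measurements. The tested cells were HEK293T transfected with pNTAP-2×flag-VRTN, a plasmid with the coding sequence of pig VRTN and a flag tag (3 biological replicates). They were set against HEK293T transfected with the empty pNTAP-2×flag vector (3 biological replicates). HEK293T cells derive from human embryonic kidney and express the SV40 large T antigen, and VRTN (vertnin) is a DNA-binding protein linked to vertebra number in pigs. Total RNA was taken 24 hours after transfection and 500 ng was labelled for Affymetrix Human Gene 1.0 ST arrays. The model is 1 cell line with a forced pig transgene, and the share of transfected cells is not given in the sources used here.

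A nucleosome is built from the core histones H2A, H2B, H3 and H4, and the linker histone H1 binds the DNA between nucleosomes. The genes lie in clusters and are transcribed in S phase under the coactivator NPAT (nuclear protein, coactivator of histone transcription). Most give intronless mRNAs that end in a stem-loop instead of a poly(A) tail. Some members have longer annotated spans, such as 8566 bases for H2BC12 and 29682 for H2BC18, against 486 for H3C10. The stem-loop is bound by SLBP and cut with the help of the U7 small nuclear ribonucleoprotein, and the mRNAs are degraded when DNA synthesis stops. Because coding sequences within a class can be much alike, a probe set can also take signal from a paralog. Of the 58 probe sets with 1 symbol, 38 listed probes on a RefSeq transcript of that gene. In the same annotation 0 of them listed probes on a RefSeq transcript of another member gene. Among all 77, 6 listed 1 probe. Whether labelling was primed at poly(A) tails or at random is not given in the sources used here.

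Promoters of the members differ by class in their sequence elements, and the 6 below are shown because they belong to members described first in their class below, except H2BC7, which is shown for H2B because it holds the octamer. Each is the 150 bases before the annotated start, from RefSeq on GRCh38.p14, written 5′ to 3′ on the gene's strand. Capitals mark CCAAT (the CCAAT box), TATAAA (the TATA box), ATTTGCAT (the octamer, known from H2B promoters) and AAACACA (the H1 box), searched on both strands, so that ATTGG and TTTATA are reverse-strand matches. Capitals run together where matches overlap, as in TTTATAAA.
H3C10 (chr6:27809901-27810050, plus strand): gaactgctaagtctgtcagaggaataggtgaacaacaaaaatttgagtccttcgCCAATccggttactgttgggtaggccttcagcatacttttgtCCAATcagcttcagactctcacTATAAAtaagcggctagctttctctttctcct
H3C7 (chr6:26250636-26250785, minus strand): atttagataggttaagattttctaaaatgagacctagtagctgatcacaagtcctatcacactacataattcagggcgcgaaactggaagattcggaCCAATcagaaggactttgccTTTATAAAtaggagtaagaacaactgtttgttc
H2AC11 (chr6:27132893-27133042, plus strand): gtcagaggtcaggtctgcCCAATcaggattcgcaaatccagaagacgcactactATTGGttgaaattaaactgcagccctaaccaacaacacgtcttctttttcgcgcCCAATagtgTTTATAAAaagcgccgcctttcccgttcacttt
H2BC7 (chr6:26199366-26199515, plus strand): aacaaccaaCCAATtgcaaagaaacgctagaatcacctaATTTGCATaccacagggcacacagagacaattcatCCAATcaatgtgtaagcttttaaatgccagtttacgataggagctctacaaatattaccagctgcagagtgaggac
H4C4 (chr6:26189113-26189262, minus strand): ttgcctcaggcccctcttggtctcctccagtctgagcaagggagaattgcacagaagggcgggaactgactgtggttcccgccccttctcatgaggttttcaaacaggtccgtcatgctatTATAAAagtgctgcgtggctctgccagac
H1-2 (chr6:26056471-26056620, minus strand): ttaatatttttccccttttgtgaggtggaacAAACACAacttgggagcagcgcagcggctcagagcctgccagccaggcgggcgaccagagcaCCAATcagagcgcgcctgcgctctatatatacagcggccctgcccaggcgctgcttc
Within 250 bases before the start, CCAAT was found in 12 of 12 H3, 16 of 16 H2A, 18 of 18 H2B and 6 of 6 H1 promoters, in 3 of 13 H4 promoters, and in 33% of 27305 promoters of all genes. The octamer was found in 14 of 18 H2B and 11 of 16 H2A promoters, and in 1 of 12 H3 promoters. It was found in 0 of 13 H4 and 0 of 6 H1 promoters, against 1.66% of all promoters. The 1 H3 promoter was that of H3C4, whose CCAAT and octamer matches lay at the same positions as those of H2AC7. The H3 counts thus include a window with the matches of an H2A promoter. Among the H2A promoters, only that of H2AC17 held the octamer on the gene's strand. Where H2A and H2B windows overlap, 1 octamer can be counted for both genes, as in H2AC1 and H2BC1. The H1 box was found in 6 of 6 H1 promoters and 4.95% of all promoters, and TATAAA in 43 of 65 member promoters (66.2%) and 11.1% of all promoters. A match describes letters in this window and no more. Promoters were at hand for 65 of the 70 genes, all but H4C1, H4C3, H2AC12, H3C11 and H3C12.

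The VRTN probe set read 6.25, 6.22 and 6.07 (log2 signal) in the VRTN arrays, against 5.19, 4.98 and 5.14 in the empty vector arrays, in the direction of the labels (adjusted p = 0.0194, limma). Medians over the tested probe sets were 6.43 to 6.47 in the 6 arrays, and medians of the negative control probe sets, a guide to background, were 5.36 to 6.13. The VRTN probe set thus lay near background. It was under the negative control median in the 3 empty vector arrays, and in VRTN replicate 3 it read 6.07 against a median of 6.06. The array is for human genes and the plasmid holds pig VRTN, so the level of the transgene cannot be read from this signal. Of 7 markers of HEK293T cells, 6 lay above that background in every array, and NEFM lay below it in 5 arrays. Of 10 measured markers of other lineages, 3 (COL1A1, COL1A2 and APOA1) lay above it in every array. Same-numbered arrays of both groups deviated together, so fits with the replicate number as a block are given where they move a count. The hybridisation spikes, bacterial control transcripts added to each array, were 0.35 higher in the VRTN arrays (10.60 ± 0.10 against 10.24 ± 0.19, SD, n = 3 each), with a two-sided exact permutation p of 0.1, below which 3 against 3 arrays cannot go. The part of this difference in the histone values was not tested.

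No histone measurement passed an adjusted p of 0.05 in limma, in either direction, while the values leaned to the lower side with VRTN. Of the 73, 61 had a negative log2 fold change of VRTN over empty vector (83.6%, against 52% of all tested probe sets), and the median was -0.14, against -0.0049 over all tested probe sets. Of all tested probe sets, 0% passed as lower and 0.0137% (4 probe sets) as higher. At an unadjusted p under 0.05, 20 of the 73 were lower (27.4%) and 0 were higher, against 2.92% and 2.65% of all tested probe sets. The smallest adjusted p among the members was 0.321.

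In 22 of the 73 measurements (30.1%) every VRTN array read lower than every empty vector array, and in 0 every VRTN array read higher; the shares over all tested probe sets were 5.92% and 5.39%. In 46 all 3 same-numbered pairs were lower with VRTN (63.0%, against 19.1% of all tested), and in 2 all 3 were higher (15.8% of all tested). The median difference of the members was -0.18, -0.13 and -0.14 in pairs 1, 2 and 3. With the replicate number as a block, 33 were lower at an unadjusted p under 0.05 (45.2%, against 6.19% of all tested) and 1, H1-6, was higher (5.31% of all tested), and the smallest adjusted p was 0.168, where 0% of all tested passed as lower and 0.0274% as higher. The count of 20 became 12 when VRTN replicate 2 was left out, 13 when empty vector replicate 1 was, and 10 without replicate 2 of both groups. The count of 22 was 41 without VRTN replicate 1 or without replicate 1 of both groups, and 36 without replicate 3 of both groups. Fewer arrays overlap less in any probe set. The shares over all tested probe sets with arrays left out are not given here, so these higher counts cannot be set against 5.92%. In bulk RNA, fewer cells in S phase and less histone mRNA per cell cannot be told apart.

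**Figure D1:**
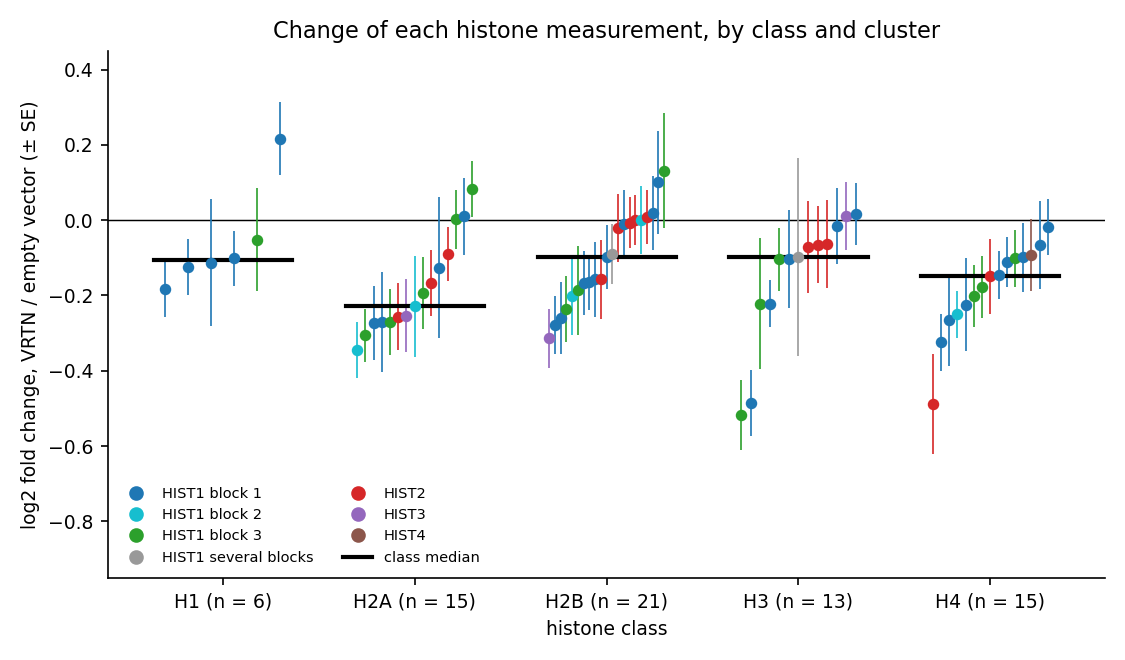
Log2 fold change of VRTN over empty vector (y axis, ± SE from limma, 3 arrays per group) for the 70 histone measurements of a single class, by class (x axis) and coloured by cluster, with the class median as a bar. All 15 H4 points lie below 0, H3C10 and H3C7 are the lowest H3 points, and H1-6 is the highest point at 0.22.

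H3C10 had the most negative value of all members, and H3C7 was the next among the H3 genes. H3C10 read 7.65, 7.64 and 7.56 (log2 signal) in the VRTN arrays, against 8.32, 8.06 and 8.02 in the empty vector arrays. H3C7 read 7.98, 7.97 and 8.23 in the VRTN arrays, against 8.60, 8.50 and 8.54 in the empty vector arrays. In both genes all VRTN arrays read below all empty vector arrays, with VRTN replicate 3 of H3C7 closest to the other group. The log2 fold change was -0.52 for H3C10 (SE 0.093, 95% interval -0.73 to -0.30, n = 3 per group) and -0.48 for H3C7 (SE 0.088, -0.69 to -0.28), which is 69.9% and 71.5% of the empty vector signal on the linear scale. Both had an adjusted p of 0.386 in limma, and over the alternatives it ran upward from 0.0994 for H3C10 and from 0.0936 for H3C7, both with array weights.

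The other H3 genes were more uneven. H3C2 read 11.56, 11.54 and 11.60 in the VRTN arrays, against 11.77, 11.80 and 11.80 in the empty vector arrays, a tight difference of -0.22 (SE 0.062, adjusted p = 0.710, limma). H3C12 also differed by -0.22 but with an SE of 0.17, since its arrays followed the replicate number: 8.41, 8.03 and 7.94 with VRTN, against 8.70, 8.20 and 8.14 with empty vector. H3C8 (0.017), which lay under the background median in all arrays, was the H3 gene of the HIST1 cluster with a positive value. Of the 13 H3 measurements 11 were negative. At an unadjusted p under 0.05, 3 were lower (23.1%, against 2.92% of all tested), or 4 with the replicate block (30.8%, against 6.19%). The H3 median was -0.098. That median rests on few arrays: leaving out empty vector replicate 1 gave 0.023 and leaving out empty vector replicate 3 gave -0.15. It was -0.041 or -0.043 when VRTN replicate 2 or 3 was left out, and -0.038 without replicate 1 of both groups.

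**Figure D2:**
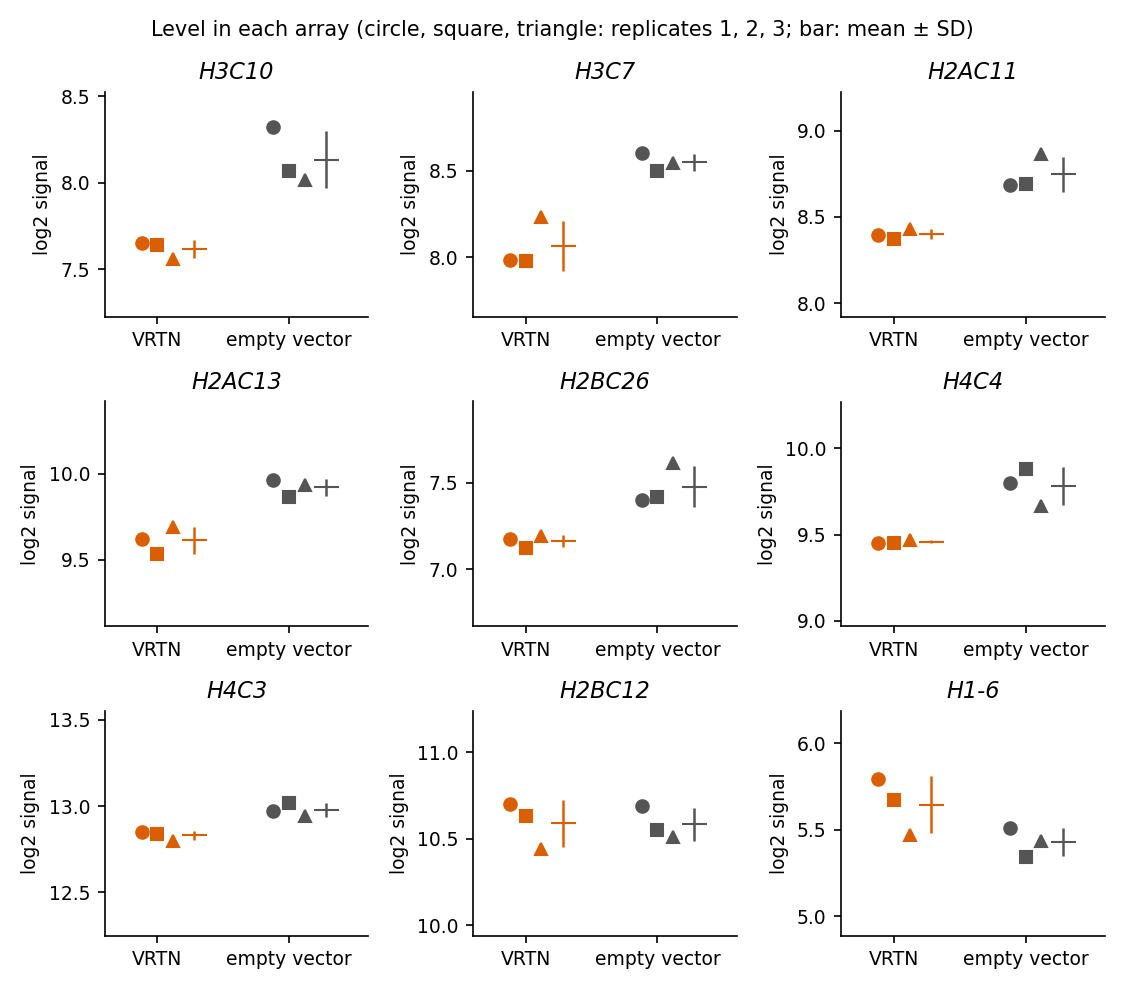
Log2 signal (y axis) of 9 histone genes in the VRTN arrays and the empty vector arrays (x axis), 1 symbol per replicate number, with the mean ± SD (n = 3) at the right; every panel spans the same range. The groups are apart in the 7 panels from H3C10 to H4C3 and overlap for H2BC12 and H1-6.

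Histone H2A had a median of -0.23, with 12 of 15 measurements negative. At an unadjusted p under 0.05, 6 of the 15 were lower (40%, against 2.92% of all tested probe sets), or 10 with the replicate block (66.7%, against 6.19%), and in 5 the groups did not overlap (33.3%, against 5.92%). This was the most negative of the class medians with all 6 arrays. Leaving out VRTN replicate 3 gave -0.15 for both H2A and H1, and leaving out empty vector replicate 1 gave -0.13 for both H2A and H4, so H2A was not first there. H2AC11 read 8.39, 8.37 and 8.43 in the VRTN arrays, against 8.69, 8.69 and 8.86 in the empty vector arrays, and H2AC13 read 9.62, 9.53 and 9.69, against 9.96, 9.87 and 9.93. The groups were apart in both genes. The log2 fold changes were -0.35 (SE 0.075, adjusted p = 0.581) for H2AC11, -0.31 (SE 0.071, adjusted p = 0.604) for H2AC13 and -0.27 (SE 0.088, adjusted p = 0.802) for H2AC15, all in limma. H2AC20 read 12.47, 12.42 and 12.31 in the VRTN arrays, against 12.53, 12.51 and 12.43 in the empty vector arrays. Its groups overlapped by a narrow margin and the difference was -0.090 (SE 0.072). H2AC14, whose probe set lay far under the background median at 3.13 to 3.32 in the VRTN arrays, against 3.12 to 3.20 in the empty vector arrays, had 0.084 (SE 0.074).

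Histone H2B had the lowest share of negative values among the classes. Of 21 measurements 15 were negative, with a median of -0.099 (-0.16 over the probe sets with 1 symbol). At an unadjusted p under 0.05, 4 were lower (19.0%, against 2.92% of all tested), or 7 with the replicate block (33.3%, against 6.19%), and 5 did not overlap (23.8%, against 5.92%). H2BC26 read 7.17, 7.12 and 7.19 in the VRTN arrays, against 7.40, 7.42 and 7.61 in the empty vector arrays, with no overlap. H2BC7 read 8.71, 8.56 and 8.73 in the VRTN arrays, against 8.92, 8.89 and 9.01 in the empty vector arrays, also with no overlap. The log2 fold changes were -0.31 (SE 0.079, adjusted p = 0.649) for H2BC26, -0.28 (SE 0.076, adjusted p = 0.703) for H2BC7 and -0.26 (SE 0.095, adjusted p = 0.850) for H2BC9, in limma.

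H2BC12 and a shared probe set were at nearly the same level in both groups. H2BC12 read 10.70, 10.63 and 10.44 in the VRTN arrays, against 10.69, 10.55 and 10.51 in the empty vector arrays, a difference of 0.0011 (95% interval -0.21 to 0.21) that was -0.0042 with centred arrays and -0.053 to 0.074 when arrays were left out. Probe set 7919625, annotated to H2BC21 and pseudogenes, read 11.92, 11.82 and 11.83 with VRTN, against 11.90, 11.85 and 11.82 with empty vector (0.00015, 95% interval -0.15 to 0.15). Probe set 7919637, annotated to H2BC21 alone, had -0.16 (95% interval -0.40 to 0.087), and its interval overlapped that of 7919625. Probe set 7919606, shared by H2BC21 with H2BC18 and a pseudogene, had -0.0067. H2BC17 was higher with VRTN in all 3 same-numbered pairs, at 8.21, 7.98 and 7.74 with VRTN, against 8.11, 7.80 and 7.63 with empty vector. Its groups overlapped, and the value of 0.13 (SE 0.15, and 0.056 with the replicate block) ran between 0.013 and 0.26 when arrays were left out.

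All 15 H4 measurements had a negative value, with a median of -0.15. At an unadjusted p under 0.05, 4 were lower (26.7%, against 2.92% of all tested), or 9 with the replicate block (60.0%, against 6.19%), and 6 did not overlap (40%, against 5.92%). H4 mRNAs come from many genes that encode the same protein. H4C4 read 9.45, 9.45 and 9.47 in the VRTN arrays, against 9.80, 9.88 and 9.66 in the empty vector arrays. The VRTN arrays agreed closely (SD 0.0086) and lay below all 3 others, by -0.32 on average (SE 0.076, adjusted p = 0.604, limma). H4C9, under the background median in 5 arrays, had -0.25 (SE 0.063, adjusted p = 0.645, limma). H4C3 read 12.85, 12.84 and 12.80 in the VRTN arrays, against 12.97, 13.02 and 12.94 in the empty vector arrays, apart without overlap by -0.15 (SE 0.064, adjusted p = 0.892, limma).

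The HIST2 genes H4C14 and H4C15 had different values on different probe sets. Probe set 7905067, annotated to both genes and with 1 probe listed, read 9.68, 10.12 and 10.04 in the VRTN arrays, against 10.31, 10.63 and 10.36 in the empty vector arrays (-0.49, SE 0.13, adjusted p = 0.703, limma). Probe set 8180255 was annotated to H4C15, with 0 probes listed, and equal in every array to one annotated to H4C14. It read 10.81, 10.62 and 10.62 with VRTN, against 11.01, 10.74 and 10.74 with empty vector (-0.15, SE 0.0997). The groups were apart in the first and overlapped in the second.

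Histone H1 had 6 measurements, 5 of them negative, a median of -0.11 (-0.054 without replicate 1 of both groups) and 1 lower at an unadjusted p under 0.05 (16.7%, against 2.92% of all tested). H1-2 read 10.42, 10.40 and 10.53 in the VRTN arrays, against 10.65, 10.55 and 10.70 in the empty vector arrays, apart without overlap by -0.18 (SE 0.075, adjusted p = 0.867, limma). H1-4 had -0.10 (SE 0.073) and H1-1, which lay under the background median in 5 arrays, -0.12 (SE 0.075). H1-6, the testis linker histone, read 5.80, 5.67 and 5.47 in the VRTN arrays, against 5.51, 5.35 and 5.43 in the empty vector arrays. Its groups overlapped and 4 of the 6 values lay under the background median. Its value was 0.22 (SE 0.097; adjusted p = 0.892, and 0.381 with the replicate block, limma). H2AC1 and H2BC1, also known from testis, lay under the background median in all arrays, at 0.0099 (SE 0.10) and 0.019 (SE 0.099).

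Another 3 probe sets named genes of different classes, and all 3 were negative. Probe set 8117583, annotated to H3C10 and H2AC13, had the smallest p of all members and read 9.06, 8.99 and 8.97 in the VRTN arrays, against 9.59, 9.43 and 9.42 in the empty vector arrays. The groups were apart, by -0.47 (SE 0.075, adjusted p = 0.321, limma). All 10 of its listed probes were assigned to an H2A transcript in the deposited annotation. It was not counted as a measurement of H3C10, and it entered neither the H2A nor the H3 counts above. Of the 5 probes listed for the probe set annotated to H2AC13 alone (-0.31), 0 were listed on a RefSeq transcript of that gene. The same held for other probe sets with 1 symbol, such as those of H1-2, H2BC7 and H4C3. Listings under other kinds of transcript record were not counted. The values of probe set 8124416 (H3C4 and H2AC7, 1 listed probe) and 8117600 (H2BC15 and H2AC15) were -0.35 (SE 0.15) and -0.14 (SE 0.067).

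By cluster, HIST1 on chromosome 6 held 56 measurements, of which 47 were negative, with a median of -0.15. It was divided into 3 blocks where 5 or more other protein-coding genes lie between neighbouring histone genes. Beside 2 probe sets annotated to genes of several blocks (8068898 and 8117415, at -0.090 and -0.098), the median was -0.13 over the 32 measurements of block 1, -0.23 over the 5 of block 2 and -0.19 over the 17 of block 3, and 27, 4 and 14 of them were negative. H3C7 lies in block 1 and H3C10 in block 3. The block 2 median was -0.15 without VRTN replicate 3. The differences between blocks, clusters and classes were not tested.

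HIST2 on chromosome 1 had 13 measurements, of which 11 were negative. At an unadjusted p under 0.05, 2 were lower (15.4%, against 2.92% of all tested), or 4 with the replicate block (30.8%, against 6.19%). The HIST2 median was -0.071. Leaving out VRTN replicate 1 or 3 gave -0.12 or -0.043, leaving out empty vector replicate 3 gave -0.14, and replicate 3 of both groups -0.11. It was -0.040 after another quantile normalization and -0.15 over the probe sets with 1 symbol. Within it the 2 H4 measurements described above had a median of -0.32, the 3 H2A measurements one of -0.17 and the 5 H2B measurements one of -0.0067. The 3 H3 measurements, annotated to H3C13, H3C14 and H3C15 together, ran between -0.071 and -0.063. One of them, probe set 7919612, read 11.39, 11.21 and 11.21 with VRTN, against 11.61, 11.24 and 11.17 with empty vector, so the groups overlapped and the 2 replicates numbered 1 were high.

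HIST3, also on chromosome 1, holds H2AC25, H2BC26 and H3-4, and its median was -0.25 (-0.16 without empty vector replicate 1). H2AC25 read 7.70, 7.62 and 7.55 in the VRTN arrays, against 8.07, 7.74 and 7.83 in the empty vector arrays, with no overlap (-0.25, SE 0.097, adjusted p = 0.853, limma). H3-4, which encodes the testis variant H3t, read 6.55, 6.27 and 6.53 with VRTN, against 6.44, 6.44 and 6.43 with empty vector, with overlap. Its value was 0.011 (SE 0.089), with the opposite sign under array weights (-0.099). H4C16, the only gene of HIST4 on chromosome 12, lay under the background median in all arrays and had -0.092 (SE 0.096).

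**Figure D3:**
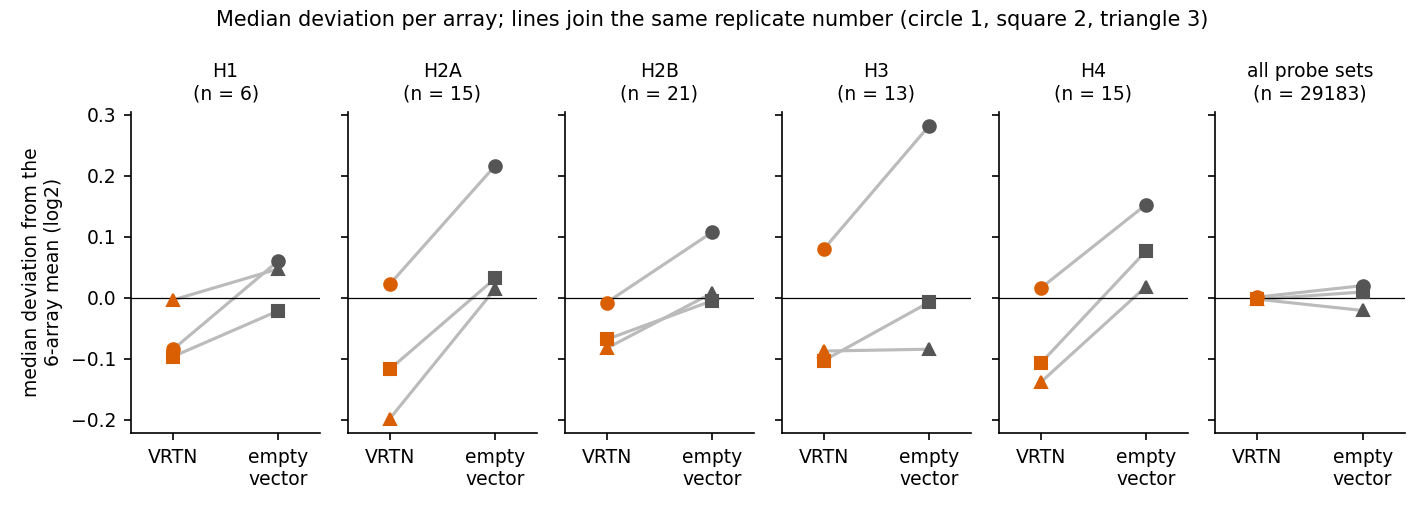
Median over each class of the deviation from the probe set's own mean over 6 arrays (y axis, log2) in the VRTN and empty vector arrays (x axis), with lines joining the same replicate number. Each VRTN point lies below the empty vector point of its number in the 5 classes, and the points of replicate 1 lie highest in H2A, H2B, H3 and H4 in both groups.

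The arrays differed by replicate number as well as by plasmid. As a deviation from its own mean over the 6 arrays, the median member stood at 0.016, -0.10 and -0.11 in VRTN replicates 1, 2 and 3, against 0.13, 0.017 and 0.0078 in the empty vector replicates. VRTN replicate 1 thus lay between empty vector replicates 2 and 3, while each VRTN array lay below its own number. The class H3 medians were 0.080, -0.10 and -0.087 with VRTN, against 0.28, -0.0075 and -0.084 with empty vector. In H3 empty vector replicate 3 lay close to the VRTN arrays and empty vector replicate 1 far above all others. In H4 the medians were 0.016, -0.11 and -0.14 with VRTN, against 0.15, 0.076 and 0.018 with empty vector, and the groups were apart by a narrow margin. All tested probe sets together stayed between -0.0024 and 0.0012 with VRTN, against -0.021 to 0.020 with empty vector.

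The values differed with signal strength. The 17 members whose mean lay under the background median had a median of -0.051 and 1 lower at an unadjusted p under 0.05. Between that level and 9 (log2 signal) the 29 members had a median of -0.19 with 10 lower, between 9 and 11 the 15 members had -0.23 with 7 lower, and from 11 upward the 12 members had -0.096 with 2 lower. All tested probe sets in these ranges had medians of 0.0074, -0.0066, -0.030 and -0.032, and 2.13%, 3.34%, 4.21% and 1.33% of them were lower at that p. The limits of these ranges were chosen after the values were seen.

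**Figure D4:**
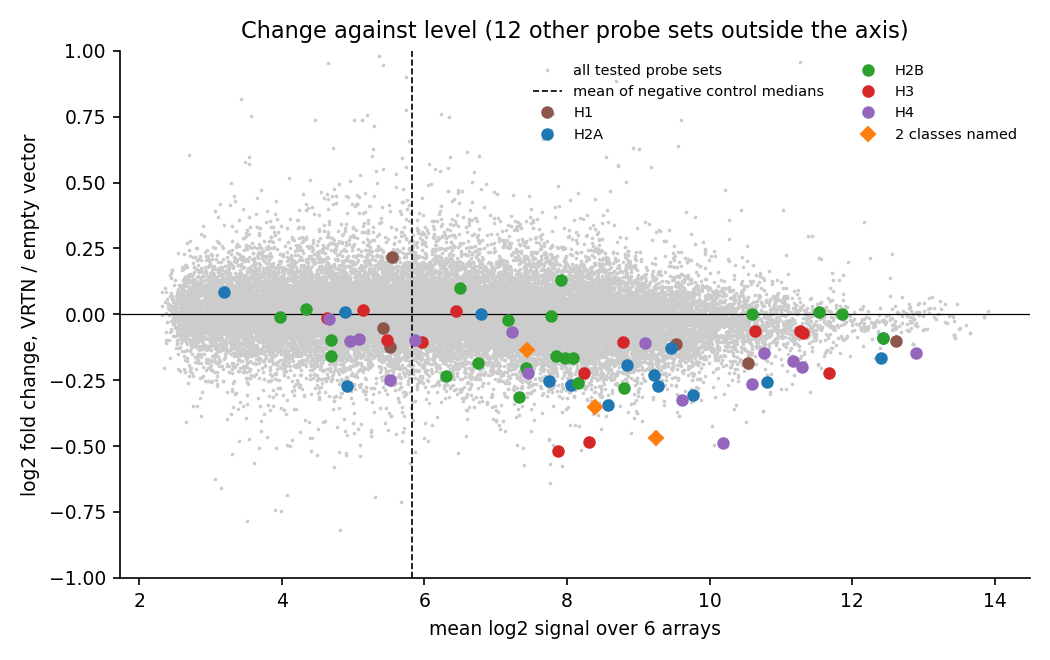
Log2 fold change of VRTN over empty vector (y axis) against the mean log2 signal over 6 arrays (x axis) for the histone measurements, coloured by class, over all tested probe sets in grey; the dashed line is the mean of the negative control medians, and 12 other probe sets lie outside the axis. Members with signals between about that line and 11 reach the lowest values, and those at the brightest end lie nearer to 0.

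Many H2A and H2B genes are arranged head to head, with a shared promoter between them. There were 9 pairs whose promoter windows of 300 bases overlapped (by 253 to 286 bases) and whose genes each had a probe set with 1 symbol. Both genes were negative in 5 pairs, both positive in 2 and opposite in 2. Of all H2A and H2B measurements, 80% and 71.4% were negative, so many pairs would have both genes negative without a link within pairs. Such a link was not tested. H2AC11 and H2BC11 had -0.35 and -0.20, H2AC13 and H2BC13 -0.31 and -0.19, and H2AC25 and H2BC26 -0.25 and -0.31. H2AC6 with H2BC4 (-0.27 and -0.17) and H2AC20 with H2BC21 (-0.090 and -0.16) were the other negative pairs. The opposite pairs were H2AC8 with H2BC8 (-0.27 and 0.10) and H2AC14 with H2BC14 (0.084 and -0.23). In each of these the H2A gene lay under the background median in all arrays. The positive pairs were H2AC1 with H2BC1 (0.0099 and 0.019) and H2AC17 with H2BC17 (0.0027 and 0.13). Both H2AC1 and H2BC1 lay under the background median in all arrays.

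**Figure D5:**
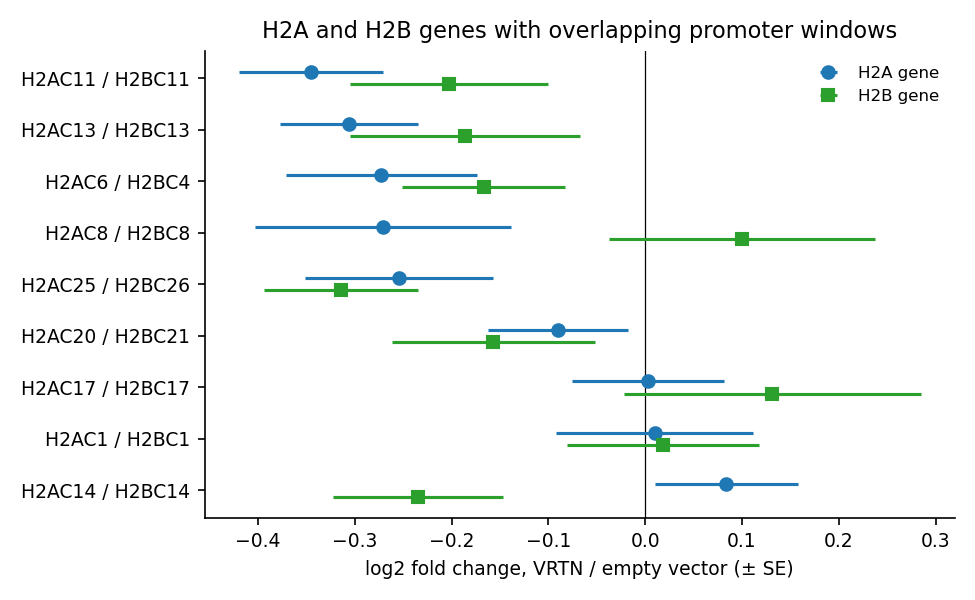
Log2 fold change of VRTN over empty vector (x axis, ± SE, 3 arrays per group) of the H2A gene (circle) and the H2B gene (square) of 9 head-to-head pairs (y axis). Both symbols lie left of 0 in 5 pairs and on opposite sides in the pairs H2AC8 / H2BC8 and H2AC14 / H2BC14.

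Genes that transcribe and process histone mRNA lay mostly near 0. Of 37 measured of 39 listed, 0 passed in limma and 26 were negative (52% of all tested were), with a median of -0.029. At an unadjusted p under 0.05, 2 of the 37 were lower and 0 higher, against 2.92% and 2.65% of all tested. The 2 were NCBP2, a subunit of the nuclear cap-binding complex (-0.18, SE 0.069), and E2F1, a transcription factor of the G1/S transition (-0.20, SE 0.083), with adjusted p of 0.853 and 0.867. SLBP read 9.31, 9.25 and 9.14 in the VRTN arrays, against 9.28, 9.24 and 9.24 in the empty vector arrays, and NPAT 9.52, 9.69 and 9.56, against 9.57, 9.71 and 9.56. In both the groups overlapped, at -0.016 (95% interval -0.18 to 0.15) and -0.025 (-0.21 to 0.16), and both took the other sign after another quantile normalization (0.015 and 0.0058). CASP8AP2, a partner of NPAT at histone genes, had -0.13 (SE 0.11; -0.24 to -0.025 when arrays were left out), and ERI1, an exonuclease of the histone mRNA stem-loop, -0.12 (SE 0.095). The U7 components LSM10 and LSM11 had 0.031 and -0.067, ZNF473, a U7 partner also called ZFP100, had 0.17 (SE 0.16; 0.043 to 0.33 when arrays were left out), and PAPOLA, a poly(A) polymerase, had 0.090 (SE 0.062).

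Genes listed as replication-independent histone genes, H2AX among them, gave a median of 0.0023 over 13 measured of 18 listed. Of the 13, 6 were negative, 0 passed in limma and 1 was lower at an unadjusted p under 0.05, where 2.92% of all tested were. H1-10, a linker histone with a polyadenylated mRNA, was the 1, at -0.22 (SE 0.078, adjusted p = 0.830). MACROH2A1 had -0.041, H2AZ2 0.079 and H3-3B, a gene of the replacement histone H3.3, 0.048. Genes of DNA replication and S phase, which are active when the histone genes are, had a median of -0.095 over 44 measured of 45 listed, with 38 negative (52% of all tested were) and 0 passed in limma. At an unadjusted p under 0.05, 9 of the 44 were lower, against 2.92% of all tested, and in 16 every VRTN array read lower than every empty vector array, against 5.92%. That count of 9 was 14 with the replicate block (6.19% of all tested), 3 or 0 when VRTN replicate 2 or 3 was left out, 5 or 2 when empty vector replicate 1 or 2 was, and 1 without replicate 2 or 3 of both groups. BLM, a DNA helicase, had -0.33 (SE 0.11) and CDC25A, a phosphatase that drives S phase entry, -0.24 (SE 0.076), while ASF1B, a histone chaperone, had 0.12 (SE 0.15; 0.0018 to 0.25 when arrays were left out) and UHRF1 0.051 (SE 0.15). The part of S phase gene levels in the histone values was not tested.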

How the data were processed

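RNA of 6 HEK293T samples was hybridised to 1 array each. The values that the authors deposited are log2 signals summarised by RMA with its defaults, per the file headers; the submitters' processing notes name Affymetrix Expression Console 1.0. RMA equalises the distributions of the arrays, which hides a shift common to most transcripts. The genome build of the array annotation is not given in the sources used here. A second deposited table held the same values (0 of 33297 probe sets differed by over 1e-05). The number of arrays limits the precision.

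The 4114 control probe sets were left out. Of the 29183 tested, 19460 had 1 symbol in the platform annotation, 1752 several and 7971 none; symbols were updated through a RefSeq gene table of GRCh38.p14, and a probe set with several symbols named no gene. VRTN was set against empty vector in limma 3.58.1 under R 4.3.3 (lmFit and eBayes, two-sided, Benjamini-Hochberg over all tested probe sets, threshold 0.05), without a filter. The fit was tested on simulated data. Probe set 7905077 (pseudogene only) and 7919604 (shared with a gene outside the family) were not members; their values were -0.12 and -0.14. Python 3.11.15 with pandas 2.3.3, scipy 1.17.1 and matplotlib 3.10.9 did the rest.

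The members and the gene lists were chosen with earlier results of these data known. Named genes are H3C10 and H3C7; in each class the 3 single-symbol members with a negative value and the smallest p, the 1 with a positive value and the smallest p, and the one with the highest mean; every member of HIST3 and HIST4; up to 2 genes in each direction per list; and SLBP, NPAT, CASP8AP2, ZNF473, LSM10, LSM11 and ERI1. H3C12, H2AC1, H2BC1, head-to-head pairs, and shared probe sets or further ones of the same gene were named after their values were seen. Counting identical probe sets once, the comparison with negative controls, and 2 alternatives (every probe set counted, only members brighter than the negative controls) were also chosen after seeing the data.

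Deviations from the group means correlated across probe sets between arrays of the same number (0.535, 0.157 and 0.499). The numbers in the labels were therefore read as pairs, on the data alone. The fit without the block gave the calls. Alternatives covered the values (the second table, a repeated quantile normalization, centring, single-symbol members, the dimmest 40 percent removed), the model (array weights, no moderation, the replicate block, a robust prior with a trend) and the samples (arrays or replicate numbers left out).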

Additional observations from a re-analysis of the deposited data

Results flagged for a closer look

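The 9 bacterial hybridisation spikes lie outside the measurements compared here, and their mean log2 signal in the VRTN arrays exceeded that in the empty vector arrays by 0.3526. With 3 arrays per group the exact permutation test cannot go below p = 0.1, the value it gave.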

How the results depend on the processing

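No histone measurement passed the adjusted threshold in limma under any of the 20 alternatives. The probe sets of all kinds past it numbered 4, and 14 with array weights, 8 with the replicate block, 0 without moderation, 1 to 4 when single arrays were left out and 0 to 1 when a replicate number was left out of both groups. With the replicate block, which speaks to the pairing, 33 members were lower and 1 higher at an unadjusted p under 0.05 and 14 S phase genes were lower; it changed no call at the adjusted threshold among the results given. Array weights also gave 1 member higher. Of the processing genes, 1 was lower after another quantile normalization and 1 higher without moderation.

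With single arrays left out, members lower at an unadjusted p under 0.05 numbered 12 to 24 and higher 0 to 1, and members without overlap numbered 22 to 41 lower and 0 to 2 higher. With a replicate number left out of both groups these were 10 to 18, 0 to 1, 29 to 41 (36 without replicate 3) and 2, since fewer arrays overlap less. The matching shares over all tested probe sets are not given for counts with arrays left out. With single arrays left out the medians ran from -0.15 to 0.023 for H3, -0.21 to -0.12 for H4, -0.31 to -0.15 for block 2 of HIST1 and -0.32 to -0.16 for HIST3. S phase genes lower numbered 0 to 8 (1 to 6 without a replicate number), processing genes 0 to 3 lower (0 to 1) and 0 to 1 higher, and replication-independent histone genes 0 to 1 lower (0).

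Values near 0 changed sign when single arrays were left out: H2BC12 (-0.053 to 0.074), H3C8 (-0.046 to 0.075), H3-4 (-0.038 to 0.10), NPAT (-0.077 to 0.024), SLBP (-0.054 to 0.031), LSM10 (-0.057 to 0.15), UHRF1 (-0.069 to 0.18) and H3-3B (-0.023 to 0.086). Without replicate 1 of both groups H3C8 was -0.016 and H3-4 -0.035, without replicate 2 H2BC12 was -0.034 and LSM10 -0.0058, and without replicate 3 H3-4 was -0.037 and SLBP 0.023. SLBP (0.015) and NPAT (0.0058) did so after another quantile normalization, H2BC12 (-0.0042) with centring, and H3-4 (-0.099) and NPAT (0.0013) with array weights. Other values that missed the threshold kept their sign and moved widely when arrays were left out, such as BLM (-0.41 to -0.21), H2AC25 (-0.32 to -0.16), ERI1 (-0.19 to -0.030), H1-4 (-0.14 to -0.049) and H1-6 (0.14 to 0.31). The causes were not tested. Averaging probe sets of the same symbol was not run, since no symbol stood alone on several member probe sets. Probe sets under the negative control median (13 members in all arrays) give little room to see a lower value, and near-identical genes may share signal.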
